A study of Homo sapiens with 4 samples.

Results

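The nuclear receptor family was followed in HuH7 cells that carried short hairpin RNA against MKL1 and MKL2. The genes were chosen by name as listed receptors, with 43 on the list, and 36 of them had a probe of their own among the 18417 genes tested. RARA was left out because its probe lists a second gene, and NR1H2, NR1H4, NR1I2, HNF4A, NR2F2 and NR0B1 were not analysed here because the annotation used names no probe for them. HuH7 is a human hepatocellular carcinoma cell line. One group, MKL1/2 shRNA, carried these hairpins, and the other, control shRNA, carried a control hairpin, with 2 cultures and 2 arrays in each group. All cultures were infected with lentivirus made in HEK293T cells from the pLKO.1 vector, selected with puromycin for 7 days, kept below passage 10 and grown with 10% serum, and the labels name no added receptor ligand. The titles call the cultures biological replicates without saying whether they came from separate infections, so the p-values measure the spread between these arrays, which may be technical.

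Nuclear receptors are transcription factors that bind DNA through zinc fingers and, in most cases, a small lipophilic ligand through a separate domain. Many of them, among them the retinoic acid, thyroid hormone, vitamin D and lipid-sensing receptors, bind as heterodimers with a retinoid X receptor (RXR) to paired copies of the hexamer AGGTCA or close variants, and exchange corepressors for coactivators when ligand is bound. In liver they govern the metabolism of fatty acids, bile acids, retinoids and drugs. MKL1 and MKL2, now named MRTFA and MRTFB, are actin-regulated coactivators of serum response factor (SRF), which binds the CArG box, a run of 6 A or T bases between CC and GG.

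Promoter windows are shown for 3 receptors that lay furthest from control on both knockdown arrays or hold a motif of interest. Windows of 300 bases spanned 250 before and 50 after each RefSeq start site (build GRCh38.p14), and both strands were searched. They were found for 38 of the 43 genes, 91 windows in all, and not for NR2F6, NR4A2, NR0B2, HNF4G or VDR. The RARB window at chr3:25428013-25428312, plus strand, holds a direct repeat of a pair of variant hexamers spaced by 5 bases, the arrangement known as a DR5 retinoic acid response element. The NR2F1 window at chr5:93582972-93583271, plus strand, holds a CArG box. The PPARG window at chr3:12287118-12287417, plus strand, holds 2 copies of AGGTCA. Capitals mark these matches.
RARB: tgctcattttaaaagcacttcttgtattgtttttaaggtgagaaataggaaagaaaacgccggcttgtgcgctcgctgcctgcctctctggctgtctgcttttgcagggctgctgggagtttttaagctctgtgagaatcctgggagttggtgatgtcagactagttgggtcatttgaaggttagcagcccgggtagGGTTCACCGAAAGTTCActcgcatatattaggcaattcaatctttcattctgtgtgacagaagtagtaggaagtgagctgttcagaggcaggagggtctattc
NR2F1: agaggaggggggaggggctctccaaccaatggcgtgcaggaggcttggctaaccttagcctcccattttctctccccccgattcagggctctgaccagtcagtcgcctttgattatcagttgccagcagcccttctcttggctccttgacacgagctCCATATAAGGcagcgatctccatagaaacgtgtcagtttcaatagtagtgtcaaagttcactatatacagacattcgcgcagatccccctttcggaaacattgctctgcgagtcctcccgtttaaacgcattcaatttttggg
PPARG: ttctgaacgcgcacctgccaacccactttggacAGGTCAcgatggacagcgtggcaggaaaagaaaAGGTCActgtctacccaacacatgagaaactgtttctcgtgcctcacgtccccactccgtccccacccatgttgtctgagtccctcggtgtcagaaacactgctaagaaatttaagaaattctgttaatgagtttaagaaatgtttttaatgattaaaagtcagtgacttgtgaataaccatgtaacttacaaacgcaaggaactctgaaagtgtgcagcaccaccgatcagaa
The RARB repeat starts 53 bases before the start site, and the NR2F1 CArG box starts 93 bases before it. A repeat of this spacing, with half-sites that read AGGTCA or differ from it by a G in the first place, a T in the third or both, was found in 1 of the 91 receptor windows and in 0.0883% of all 35116 windows. A CArG box was found in 1 of the 91 receptor windows and in 1.29% of all windows. AGGTCA itself was found in 15 of the 91 windows, from 10 genes, and in 13.8% of all windows. The same half-sites spaced by 1 base, the arrangement that PPAR and RXR heterodimers are known to bind, were found in 0 of the 91 windows and in 0.131% of all windows. RARB and PPARG each have several annotated start sites, and the arrays do not show which was used.

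The probe for MRTFA, which also lists RBM15, read 6.81 and 6.91 on the MKL1/2 shRNA arrays, against 7.77 and 7.80 on the control arrays (log2 expression values). Its log2 difference, MKL1/2 shRNA minus control, was -0.93 (SE 0.0962), with a limma adjusted p of 0.199 over all 33297 probes and 0.0404 when it was added to the 18417 genes. MRTFB read 6.84 and 7.11 on the knockdown arrays, against 7.20 and 7.22 on the control arrays, and did not pass (limma adjusted p = 0.448). All 10 hepatocyte markers examined, such as ALB and AFP, had mean log2 values of at least 9.96. Of 16 measured markers of fibroblasts, leukocytes and endothelium none passed in limma over all genes, and 9 lay above the level set by olfactory receptor genes (described below), with the highest mean, 12.1, for LYZ. Their part in the results was not tested. Over genes, the log2 difference had an SD of 0.265 between the MKL1/2 shRNA arrays and 0.154 between the control arrays. Between a knockdown and a control array it ran from 0.261 (replicate 2 of each) to 0.310 (replicate 1 of each). The knockdown arrays thus differed from each other about as much as knockdown array 2 did from control array 2.

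Over all genes, limma called none of the 36 receptors at an adjusted p under 0.05, where 0.174% of the 18417 genes were called (0.0814% higher and 0.0923% lower). At an adjusted p under 0.1, where 0.782% of genes were called, PPARG and RARB passed. At an unadjusted limma p under 0.05 there were 6 receptor genes, 3 higher (PPARG, RARB and NR3C2) and 3 lower (RARG, NR2F1 and NR2F6) in MKL1/2 shRNA cells. That is 16.7% of the 36, against 14.3% of all genes (6.25% higher and 8.04% lower). The 2 groups of arrays did not overlap for 14 receptor genes, 9 higher and 5 lower, or 38.9% against 45.5% of all genes (22.5% higher and 23.0% lower). The median log2 difference was 0.027 over the receptors and 0.0082 over all genes. These shares lie close to those of all genes, so the values below concern individual receptors. Without knockdown replicate 2 the unadjusted count was 6 higher and 6 lower (16.7% each, against 11.5% and 13.0% of all genes), without knockdown replicate 1 it was 3 and 4 (against 9.02% and 9.33% of all genes), and without either control array it was 2 and 2 (5.56% each, against 2.25% and 2.45% of all genes without control replicate 1 and 2.95% and 3.67% without control replicate 2).

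**Figure D1:**
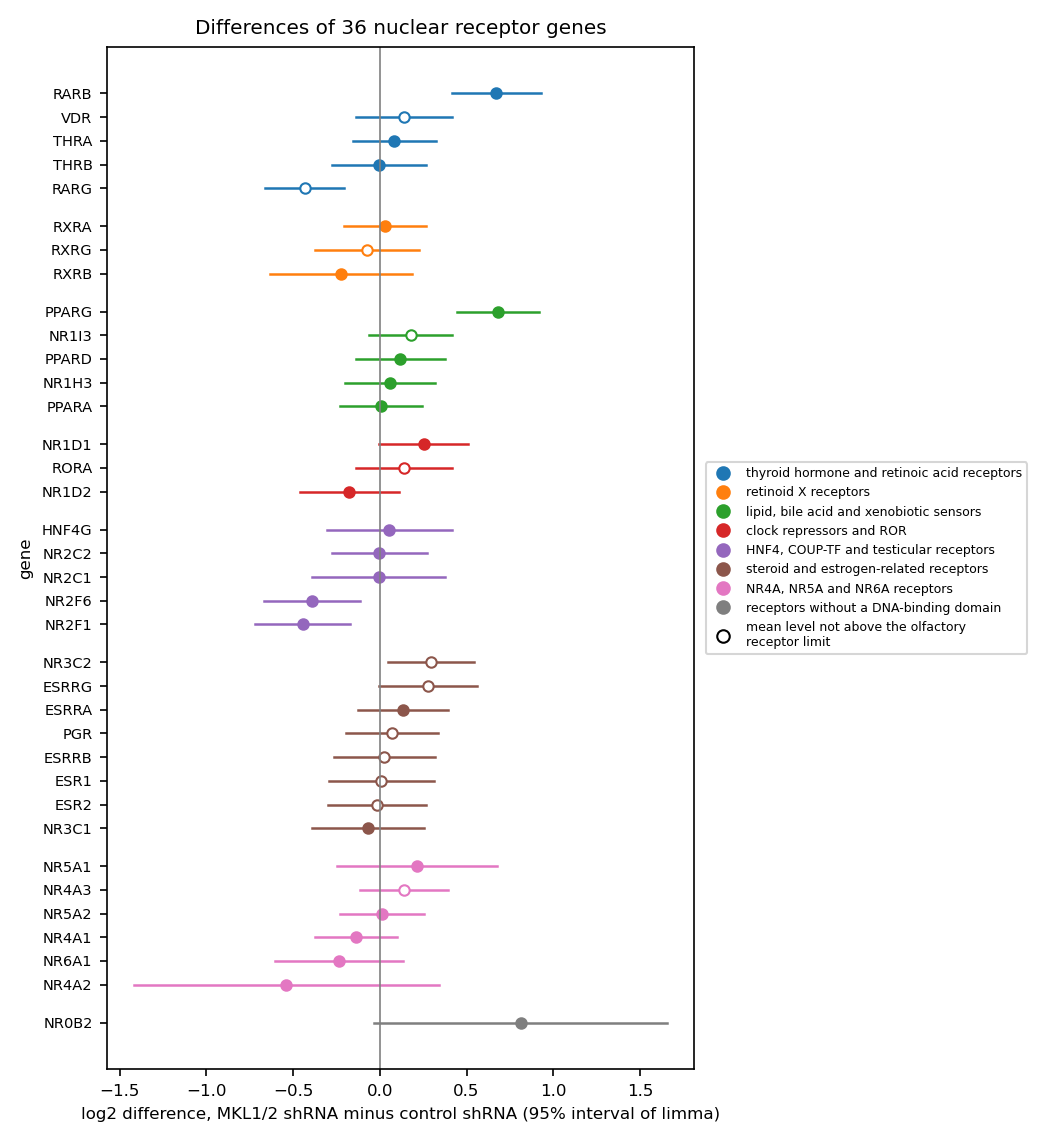
Log2 difference (x axis, MKL1/2 shRNA minus control shRNA) of the 36 measured nuclear receptor genes (rows), grouped by role, with the 95% interval of limma over 4 arrays. Filled points are genes whose mean level lies above the 95th percentile of olfactory receptor genes, open points the others; the intervals of PPARG and RARB lie furthest above 0, and those of NR0B2 and NR4A2 are the widest.

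The arrays carry no detection call, so the 341 olfactory receptor genes, which are known mainly from the nose, served as a guide to dim probes. Their 95th percentile lay at a mean log2 value of 5.19. Of the 36 receptors, 24 lay above it, and 12 did not: RARG, VDR, RXRG, NR1I3, RORA, ESR1, ESR2, ESRRB, ESRRG, NR3C2, PGR and NR4A3. They are called dim below.

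Among the retinoic acid receptors, RARB was higher and RARG lower on both knockdown arrays, without passing the test over all genes. RARB, itself a known target of retinoic acid signalling, read 6.82 and 6.69 in MKL1/2 shRNA cells, against 6.14 and 6.01 in control cells. The knockdown arrays both lay above the control arrays, with a log2 difference of 0.67 (SE 0.105, 95% interval 0.42 to 0.93, limma adjusted p = 0.0944). RARG, the isotype best known from skin, read 4.79 and 4.85 in MKL1/2 shRNA cells and 5.25 in both control arrays. Its log2 difference was -0.43, with an SE of 0.0933 and a limma adjusted p of 0.148. The groups did not overlap, but all 4 values lie near the limit set by olfactory receptor genes. The thyroid hormone receptor genes THRA and THRB lay at log2 differences of 0.083 and -0.0051, and the vitamin D receptor gene VDR at 0.14, and their groups overlapped. The RXR genes, whose products are the common partners, did not pass the test, and their groups overlapped. RXRA read 9.31 and 9.41 in knockdown cells, against 9.32 and 9.35 in control cells, and the 95% interval of its log2 difference ran from -0.21 to 0.27. RXRB stood at 7.10 on knockdown array 1 and 7.59 on knockdown array 2, against 7.57 on both control arrays. Its other 2 probes gave log2 differences of -0.20 and -0.21, against -0.22 for the one used. RXRG was dim, with a log2 difference of -0.074.

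Among the sensors of lipids and foreign compounds, PPARG lay furthest from control. PPARG, the fatty acid receptor best known as the master regulator of fat cells, read 9.19 and 9.08 in MKL1/2 shRNA cells, against 8.45 and 8.47 in control cells. Both knockdown arrays lay well above the control arrays, and the log2 difference was 0.68 (SE 0.0973, 95% interval 0.44 to 0.92). Its limma adjusted p of 0.0838 was the lowest of the 36 receptors. Its paralogs lay closer to control. PPARA, the fatty acid oxidation receptor of liver, read 6.52 and 6.41 in knockdown cells, against 6.47 and 6.44 in control cells (log2 difference 0.0082), and PPARD lay at 0.12. The differences between the paralogs were not tested. The liver X receptor gene NR1H3, a sensor of oxysterols, lay at 0.059. NR1I3, which encodes the xenobiotic receptor CAR, read 5.14 and 5.08 in knockdown cells, against 4.99 and 4.87 in control cells, without overlap but below the olfactory receptor limit (log2 difference 0.18, limma adjusted p = 0.472).

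**Figure D2:**
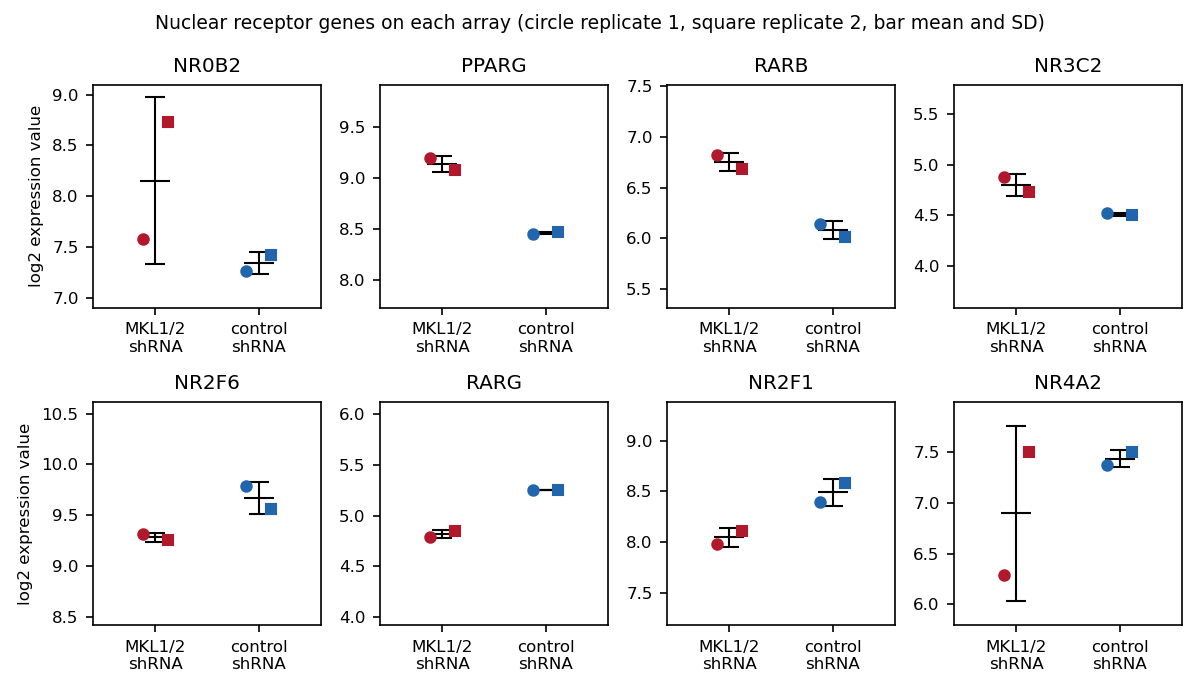
Log2 expression values (y axis) of 8 nuclear receptor genes on each array, with the mean and SD of each group over 2 arrays; every panel spans the same number of log2 units, and levels of different genes are not comparable. PPARG, RARB and NR3C2 are higher and RARG, NR2F1 and NR2F6 lower on both MKL1/2 shRNA arrays, whereas NR0B2 and NR4A2 differ between these arrays.

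The COUP transcription factor genes NR2F1 and NR2F6, which encode orphan receptors that often repress transcription, both lay below control. NR2F1 read 7.98 and 8.11 in MKL1/2 shRNA cells, against 8.39 and 8.58 in control cells. Its log2 difference was -0.44 (95% interval -0.72 to -0.17), with an SE of 0.113 and a limma adjusted p of 0.187. NR2F1 was also the receptor whose window shown above holds a CArG box. Whether the box bears on its level was not tested, and NR2F6 had no window to search. NR2F6 read 9.31 and 9.25 in MKL1/2 shRNA cells, against 9.78 and 9.56 in control cells. Its log2 difference was -0.39, with an SE of 0.113 and a limma adjusted p of 0.22. Neither pair of groups overlapped, and neither gene passed the test over all genes. The other 3 measured genes of this branch had overlapping groups. HNF4G, a relative of the hepatocyte regulator HNF4A, lay at 0.055, and the testicular receptor genes NR2C1 and NR2C2 at -0.0075 and -0.0024. The interval of NR2C1 ran from -0.39 to 0.38, so changes of that size cannot be told from none with these arrays.

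The clock repressors REV-ERB alpha and beta, encoded by NR1D1 and NR1D2, lay on opposite sides of control. NR1D1 read 7.63 and 7.53 in MKL1/2 shRNA cells, against 7.25 and 7.40 in control cells (log2 difference 0.25, limma adjusted p = 0.353). NR1D2 read 6.25 and 6.50 in knockdown cells, against 6.54 and 6.57 in control cells (log2 difference -0.18, limma adjusted p = 0.557). Neither passed, and the difference between them was not tested. RORA, an activator that competes with REV-ERB proteins for the same sites, was dim and lay at 0.14.

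Of the 8 steroid and estrogen-related receptor genes, 2 lay above the olfactory receptor limit, NR3C1 and ESRRA. NR3C2, the mineralocorticoid receptor gene, read 4.88 and 4.73 in MKL1/2 shRNA cells, against 4.52 and 4.50 in control cells (log2 difference 0.29, SE 0.102, limma adjusted p = 0.283), all below the olfactory receptor limit. The glucocorticoid receptor gene NR3C1 was above it, with 6.43 and 6.76 in knockdown cells, against 6.68 and 6.64 in control cells, and the groups overlapped. The estrogen receptor genes ESR1 and ESR2 lay at 0.0079 and -0.018, and the second ESR1 probe at -0.095. ESRRA, an estrogen-related receptor that drives mitochondrial genes, lay at 0.13. ESRRB and the progesterone receptor gene PGR lay at 0.025 and 0.072, and ESRRG at 0.28 (limma adjusted p = 0.354), all dim.

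For NR0B2 and NR4A2 the gap between the knockdown arrays was over 1 log2 unit, so their log2 differences rest on 1 array each. NR0B2, which encodes the small heterodimer partner SHP, a repressor induced by bile acids that lacks a DNA-binding domain, read 7.57 on knockdown array 1 and 8.73 on knockdown array 2, against 7.26 and 7.42 in control cells. Its log2 difference was 0.81 (SE 0.347, limma adjusted p = 0.364). It was 1.39 without knockdown array 1 and 0.23 without knockdown array 2. NR4A2, an immediate early orphan receptor, read 6.29 on knockdown array 1 and 7.51 on knockdown array 2, against 7.38 and 7.50 in control cells. Its log2 difference was -0.54 (SE 0.361, limma adjusted p = 0.561). Without knockdown array 2 it was -1.15 (adjusted p = 0.0127, where limma called 2.4% of all genes lower), and without knockdown array 1 it was 0.068. PPARG and RARB also passed without knockdown array 2, at adjusted p of 0.0271 and 0.0328, where limma called 1.84% of all genes higher, and did not without any other array.

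The relatives of NR4A2 lay closer to control on knockdown array 1. NR4A1, which encodes NUR77, read 6.93 and 7.01 in knockdown cells, against 7.14 and 7.07 in control cells (log2 difference -0.14), and NR4A3 lay at 0.14. NR5A2, the liver receptor homolog that activates bile acid synthesis genes and NR0B2, read 9.47 and 9.61 in knockdown cells, against 9.54 and 9.51 in control cells, and its interval ran from -0.23 to 0.26. NR5A1, the steroidogenic factor, read 5.98 on knockdown array 1 and 5.41 on knockdown array 2, against 5.53 and 5.43 in control cells. NR6A1, the germ cell nuclear factor, lay at -0.24, with 7.76 and 7.36 in knockdown cells and 7.86 and 7.73 in control cells. Over all 28 receptors outside the 8 plotted by array, log2 differences ran from -0.24 to 0.28.

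Genes that work with the receptors were examined as 16 lists with 184 measured genes, each counted once, of which 1 was higher and none lower past an adjusted limma p of 0.05. At an unadjusted limma p under 0.05, 38 were higher (20.7%, against 6.25% of all genes) and 8 lower (4.35%, against 8.04%). The lists were chosen with earlier results of these data known, so this contrast and the list counts below are descriptive only. Leaving out 1 array gave 39 higher and 10 lower without knockdown replicate 1, where 9.02% and 9.33% of all genes were, and 54 and 19 without knockdown replicate 2, where 11.5% and 13.0% were. It gave 23 and 2 without control replicate 1, where 2.25% and 2.45% of all genes were, and 21 and 6 without control replicate 2, where 2.95% and 3.67% were. These shares of all genes are the background of the list counts below. Of 15 coactivators none passed over all genes, 10 lay below 0, and the median log2 difference was -0.044. Groups did not overlap for 7 of them, all lower, where 23.0% of all genes were. CREBBP, a histone acetyltransferase, read 8.85 and 8.98 in knockdown cells, against 9.32 and 9.24 in control cells (log2 difference -0.36). The chromatin remodeller SMARCA4 lay at -0.32 and the Mediator subunit MED1 at -0.21. Of 10 corepressors none passed, 5 lay above 0 and 5 below, and the median was -0.0088. NRIP1, a ligand-dependent corepressor also known as RIP140, read 8.28 and 8.35 in knockdown cells, against 8.86 and 8.72 in control cells (log2 difference -0.48, limma adjusted p = 0.148). HR and TBL1XR1 lay at 0.29 and 0.19. Of 8 steroid receptor chaperones none passed, all 8 lay below 0, as did 8849 of all 18417 genes, and the median was -0.10. Groups did not overlap for 6 of them, all lower, where 23.0% of all genes were. The cyclophilin PPID lay at -0.35, the immunophilin FKBP4 at -0.18 and HSP90AA1 at -0.13.

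Enzymes and carriers that supply or remove receptor ligands, and genes known to respond to retinoic acid, included several higher values. Of 20 ligand genes none passed over all genes, and 5 were higher and none lower at an unadjusted limma p under 0.05 (6.25% and 8.04% of all genes). Without control replicate 1 it was 3 higher, and without control replicate 2 it was 2. RDH10, which makes retinal from retinol, read 9.07 and 9.28 in MKL1/2 shRNA cells, against 8.40 and 8.46 in control cells, without overlap (log2 difference 0.75, limma adjusted p = 0.0847). HSD11B2, which inactivates cortisol, read 7.24 and 7.43 in knockdown cells, against 6.64 and 6.79 in control cells (log2 difference 0.62). STRA6, a retinol uptake receptor that also responds to retinoic acid, lay at 0.44, with a mean level near the olfactory receptor limit. It read 5.63 and 5.22 in knockdown cells, against 4.98 and 4.99 in control cells. STRA6 is counted as higher both here and among the retinoic acid receptor targets. Of 9 retinoic acid receptor targets none passed over all genes, 4 were higher and 1 lower at an unadjusted limma p under 0.05, and the median was 0.25, with 0.36 on knockdown array 1 and 0.18 on knockdown array 2. Without knockdown replicate 2 it was 6 higher, and without knockdown replicate 1 or either control array it was 2. The dim PLAAT4 read 5.30 and 4.95 in knockdown cells, against 4.54 and 4.50 in control cells, and RARRES2, which encodes the adipokine chemerin, read 6.79 and 7.15, against 6.32 and 6.44. The corepressor NRIP1, given above, is the 1 lower gene on that list. CYP26A1, the retinoic acid hydroxylase that is among the most sensitive known targets, read 4.75 and 4.62 in knockdown cells, against 4.62 and 4.80 in control cells, below the olfactory receptor limit.

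Targets of the drug sensors PXR and CAR had the highest median of the 16 lists, at 0.39, with 0.67 on knockdown array 1 and 0.22 on knockdown array 2. Of 13 measured genes, all 13 log2 differences were above 0, as were 9568 of all 18417 genes, 6 were higher at an unadjusted limma p under 0.05 and 1, SULT2A1, rose over all genes. The unadjusted count higher ran from 4 without control replicate 1 to 8 without knockdown replicate 2. SULT2A1, the bile acid and steroid sulfotransferase, read 7.89 and 7.84 in MKL1/2 shRNA cells, against 6.90 and 6.82 in control cells. This was a factor of 2.01 (log2 difference 1.00, limma adjusted p = 0.0329). SULT2A1 did not pass when either control array was left out or without variance moderation. In those settings 0 of the 18417 genes were called, so they cannot tell SULT2A1 from other genes. The glutathione transferase genes GSTA1 and GSTA2, close paralogs whose transcripts the probes may share, lay at 1.24 and 0.66. CYP2B6, the classic CAR target, read 6.26 and 5.27 in knockdown cells, against 4.82 and 4.75 in control cells, and CYP3A4, the classic PXR target, read 3.06 on both knockdown arrays, against 2.55 and 2.81 in control cells, far below the dim limit. Of the 2 receptors themselves, NR1I2 was not analysed here and NR1I3 was dim.

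**Figure D3:**
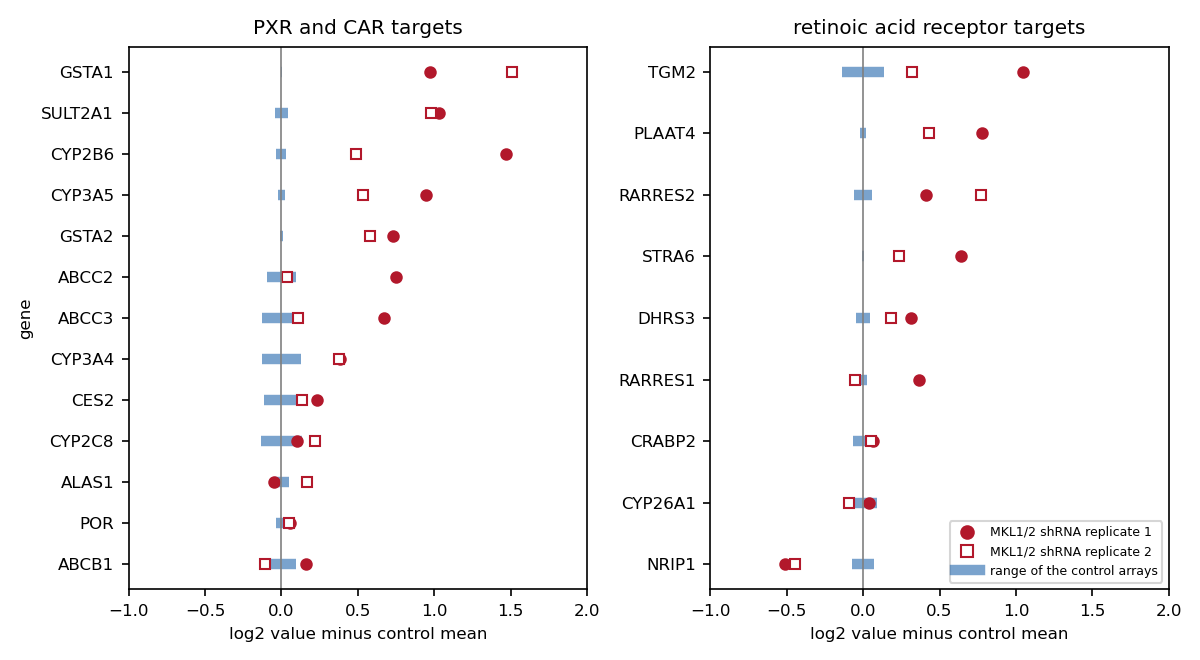
Log2 value minus the mean of the control arrays (x axis) for each measured PXR and CAR target and retinoic acid receptor target (rows), on each MKL1/2 shRNA array (points) beside the range of the 2 control arrays (bars). SULT2A1 lies about equally high on both knockdown arrays, whereas ABCC2, ABCC3 and CYP2B6 lie higher on replicate 1.

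The lists for fatty acid, sterol and bile acid receptors had lower medians than the PXR and CAR list, from 0.052 to 0.24, and no member of these lists passed over all genes. Among 18 PPARA targets, which PPARG can share, 4 were higher and 1 lower at an unadjusted limma p under 0.05 (6.25% and 8.04% of all genes). Without knockdown replicate 2 it was 9 higher and 2 lower, and without either control array 2 and 0. The median of the list was 0.21 on knockdown array 1 and -0.066 on knockdown array 2. CPT1A, which admits fatty acids to mitochondria, read 6.47 and 5.99 in MKL1/2 shRNA cells, against 5.29 and 5.38 in control cells (log2 difference 0.89, limma adjusted p = 0.123). The thiolase ACAA2 lay at 0.39 and the lipid droplet protein PLIN2 at 0.40. Among 14 LXR targets 4 were higher and none lower. MLXIPL, the glucose-responsive factor ChREBP, read 7.45 and 7.73 in knockdown cells, against 6.86 and 6.79 in control cells (log2 difference 0.76), and SMPDL3A and the phospholipid acyltransferase LPCAT3 lay at 0.56 and 0.45. Among 14 FXR targets 4 were higher and none lower, with 7 higher without knockdown replicate 2 and 1 without control replicate 2. The target lists do not separate genes that a receptor raises from genes that it lowers, so their counts and medians do not measure receptor activity. UGT2B4, a bile acid glucuronosyltransferase, read 8.05 and 6.87 in knockdown cells, against 5.59 and 5.89 in control cells (log2 difference 1.72). SLC51B, a subunit of the bile acid exporter of the basolateral membrane, lay at 0.56 and FETUB at 0.36. Among 20 HNF4A targets 4 were higher and none lower, with 7 higher and 1 lower without knockdown replicate 2, and 2 higher without knockdown replicate 1 or either control array. SLC2A2, the hepatocyte glucose transporter, read 5.73 and 6.67 in knockdown cells, against 4.61 in both control arrays (log2 difference 1.59), and OTC, which was dim, and FBP1 lay at 0.86 and 0.30.

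**Figure D4:**
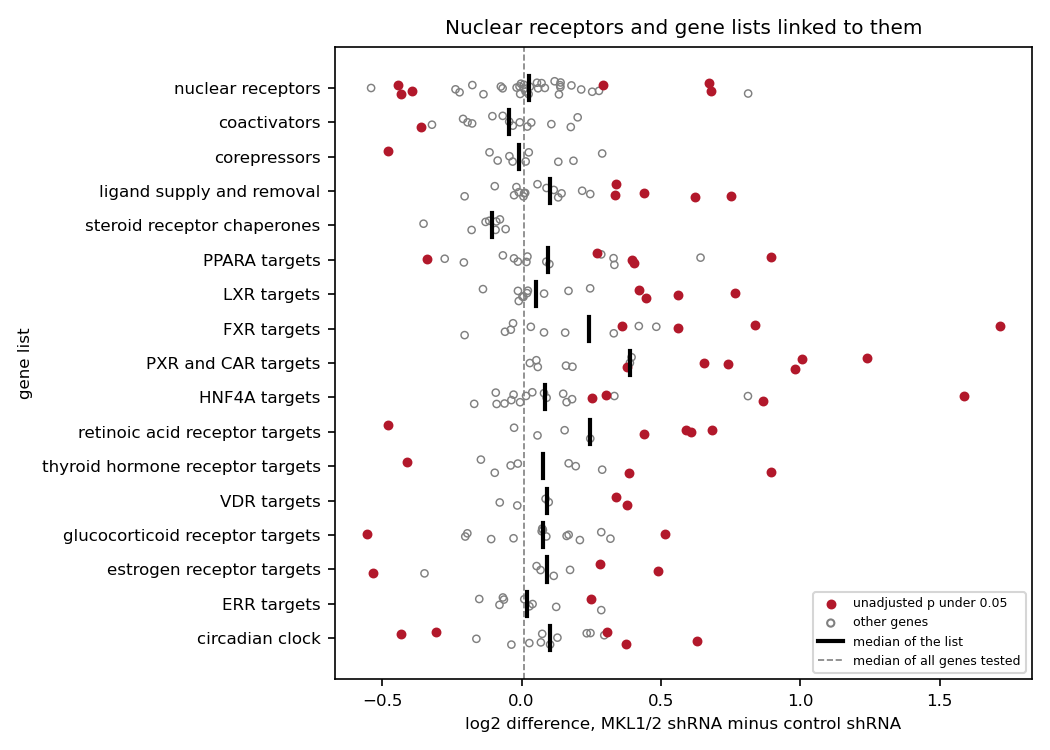
Log2 differences (x axis, MKL1/2 shRNA minus control shRNA) of the measured nuclear receptors and of 16 lists of linked genes (rows), 1 point a gene. Filled points have an unadjusted limma p under 0.05, black bars are list medians, and the dashed line is the median of all genes tested; the bar of PXR and CAR targets lies furthest to the right.

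The remaining lists held genes on both sides of control, and none of their members passed over all genes. Leaving out 1 array moved several of these small counts by over 1.5 times, with 0 to 4 higher and 0 to 3 lower in each list. Of 10 thyroid hormone receptor targets 2 were higher and 1 lower at an unadjusted limma p under 0.05, with BCL3 at 0.38 and the protease FURIN at -0.41 beside CPT1A. Of 15 glucocorticoid receptor targets 1 was higher and 1 lower, the metallothionein MT2A at 0.52 and the phosphatase DUSP1 at -0.56, and PDK4 lay at 0.29. Of 8 estrogen receptor targets 2 were higher, MYB at 0.49 and CTSD at 0.28, and 1 lower, IGFBP4 at -0.53. Of 6 vitamin D receptor targets 2 were higher, the dim CYP24A1 and CYP3A4, at 0.34 and 0.38, and CD14 lay at 0.10. Of 10 ERR targets 1 was higher, PERM1 at 0.25, and PDK4 and COXFA4 lay at 0.29 and -0.15. Of 15 clock genes 3 were higher and 2 lower. HLF, a clock output factor, read 8.56 and 8.17 in knockdown cells, against 7.69 and 7.79 in control cells, the clock repressor PER2 read 7.90 and 7.83, against 8.39 and 8.20, and BHLHE40 lay at 0.37.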

How the data were processed

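RNA of 4 HuH7 cultures was hybridised to whole-transcript arrays of 1 colour. The values are log2 expression levels of 33297 probes, deposited by the authors and running from 1.03 to 13.65. Their scale was read from that range. Partek is the tool named in the submitters' processing notes. Which background correction and normalization the authors used is not given in the sources used here. Scanner files were not used, so no probe has a detection call, and the number of arrays limits the precision. Array medians lie between 5.68 and 5.73.

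Of the probes, 19460 list 1 gene symbol and 1754 several in the platform annotation, and 12083 are not listed there. Symbols were updated through RefSeq (GRCh38.p14), and of several probes of a gene the brightest over 4 arrays was taken. All 18417 genes were fitted in R 4.3.3 with limma 3.58.1, a linear model with 1 term, the group, and moderated variances (2 residual and 4.12 prior degrees of freedom). Tests were two-sided, p-values were adjusted by Benjamini and Hochberg's method over all genes, and 0.05 was the threshold. Standard errors are limma's. Groups and replicate numbers follow the sample titles, and no pair of arrays shared over 174 identical values. Members and lists were chosen with earlier results of these data known. Values by array are given for receptors with an unadjusted p under 0.05 or an absolute log2 difference of at least 0.3, and other receptors' array values were added after they were seen. In each linked list the 3 genes with the smallest p are named. CYP26A1, CYP2B6 and the plotted ABCC2 and ABCC3 were picked after their values were seen. The fit was tested on simulated data. Alternatives changed moderation, normalization, dim-gene filter, probe choice and threshold, added a replicate block, or left out each array in turn.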

Additional observations from a re-analysis of the deposited data

How the results depend on the processing

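With 4 arrays, no receptor was called under 9 other settings of moderation, normalization, dim-gene filter and probe choice or with the replicate block. Of the 36 receptors, 23 were tested with the dimmest 40% left out, and 24 with genes not above olfactory receptor genes left out. Without moderation no gene was called at all. In the limma fit reported above, 6 receptors had an unadjusted p under 0.05. At an adjusted p of 0.1, 2 were called higher (PPARG and RARB; 0.782% of all genes passed) and 5 linked genes were higher. Leaving out each array in turn, with the lone array of a group taken to vary like the other group, 0 to 2 receptors were called higher and 0 to 1 lower, and 0 to 22 linked genes higher and 0 to 2 lower, against 1 and 0 with all arrays. Without moderation 0 linked genes were called higher. NR4A2 changed sign without knockdown replicate 1, to 0.068, and lay at -1.15 without knockdown replicate 2. The probe for MRTFA, at -0.93, passed (adjusted p = 0.0404) when set among genes in place of all probes, an alternative chosen after the data were seen. Over all genes 32 were called, against 51 with robust moderation, 0 without moderation, 144 at an adjusted p of 0.1, 299 without knockdown replicate 1, 781 without knockdown replicate 2 and 0 without either control array (866 and 1219 at an unadjusted p under 0.05). The labels do not say that replicate numbers mark a shared day, and same-numbered arrays did not deviate together (correlation over genes -0.067); with the replicate block 93 genes were called over all, 0 receptors and 4 linked genes higher. None of the 8 receptors described by array passed with all arrays, so staying short of the threshold is no sign of a stable result. In the settings above where 0 genes were called over all, no receptor or linked gene could pass. Of 116 alternative values of these 8 receptors, 1 changed sign. Most of these values could not change sign, because only normalization and leaving out an array alter the log2 difference of these genes. Causes were not tested.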

Other observations

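Between the knockdown arrays there was a gap of more than 0.5 on the log2 scale for 3 of the 36 receptors (NR4A2, NR0B2 and NR5A1), and between the control arrays for 0 of them. The gap between the knockdown arrays exceeded that between the control arrays for 23 of the 36 (63.9%), against 63.6% of all genes tested. The median absolute gap over the receptors was 0.130 between the knockdown arrays and 0.127 between the control arrays, against 0.142 and 0.0912 over all genes. NR4A2 and NR0B2 had opposite arrays out of line: NR4A2 was low on knockdown replicate 1, and NR0B2 high on knockdown replicate 2.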
